A study of Mus musculus with 16 samples.

Results

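Overlap hypoxia was compared with room air in the livers of wild type C57BL/6J mice aged 12 weeks. The comparison used 8 of the series' 16 RNA sequencing libraries, 4 labelled overlap hypoxia and 4 labelled room air, chosen by their treatment label alone. All genes were examined. The remaining libraries, 4 of sustained hypoxia and 4 of intermittent hypoxia in mice of the same strain, genotype and age, entered the fit for a shared estimate of the spread. Overlap hypoxia joins intermittent and sustained hypoxia, per the series title. Oxygen levels, how long the mice were exposed, when tissue was collected and food intake are not given here. The labels do not say which libraries were prepared together, so a p-value reflects only how far the libraries of a group differ from each other.

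Intermittent hypoxia stands in for the repeated drops in blood oxygen of sleep apnoea, and sustained hypoxia for the constant low oxygen of chronic lung disease; both can occur in the same patient. In cells short of oxygen, the hypoxia-inducible factors (HIF) escape destruction by the VHL protein and switch on genes of blood vessel growth and glycolysis. The liver holds, besides hepatocytes, resident macrophages called Kupffer cells and a fenestrated sinusoidal endothelium, and many of its metabolic genes follow the circadian clock.

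Library totals lay between 10940275 expected counts in overlap hypoxia replicate 3 and 61737508 in overlap hypoxia replicate 1, with 15725 genes holding a count in the former and 20633 in the latter. Overlap hypoxia replicate 3 also stood apart on the first principal component of the 8 libraries (96.2, against 14.2 or less in the others), which held 34.8% of the variance. Ribosomal RNA took 2.54% to 16.8% of the counts in overlap hypoxia and 1.57% to 10.2% in room air, and mitochondrial genes 2.54% to 7.17% against 1.18% to 2.75%. Neither difference passed an exact two-sided permutation test (p = 0.286 and 0.0571; adjusted over 19 library measures, 0.388 and 0.181). Because the protocol text speaks of retinas although the libraries are labelled liver, tissue markers were read. Alb, the hepatocyte product albumin, stood at 37300 to 60643 CPM (edgeR's scaled measure of counts relative to the library total) in the 8 libraries. The photoreceptor gene Rcvrn was at 0 counts in all 8, which allows up to 0.274 CPM in the shallowest library and up to 0.0486 CPM in the deepest. Gnat1, another photoreceptor gene, stood at 2.80 to 9.37 CPM.

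Of 14553 genes tested, edgeR's quasi-likelihood test called 916 (6.29%) at an adjusted p under 0.05, of which 496 (3.41%) were higher and 420 (2.89%) lower in overlap hypoxia. These shares are the background for the count of called members in each list below. At an unadjusted p under 0.05 there were 3320. The median log2 fold change was 0.88 among the genes called higher, −0.66 among those called lower and 0.027 over all genes. A change of at least 2-fold was reached by 190 higher and 80 lower genes. The 4 values of each group did not overlap in 770 called genes; over all genes tested this held for 1996 (13.7%), 957 higher (6.58%) and 1039 lower (7.14%).

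The number of calls depended on single libraries. It was 278 without overlap hypoxia replicate 1, 229 without overlap hypoxia replicate 3, 489 without room air replicate 2, 174 without room air replicate 3 and 273 without room air replicate 4. In the fits without each of the other overlap hypoxia or room air libraries it lay between 888 and 1186. In total 150 of the 916 genes (1.03% of those tested), 87 higher and 63 lower, were called in each of the 8 fits that left out 1 library of either group. A set of 141 genes (0.969%), 78 higher and 63 lower, was called in all of the 26 alternative fits that tested them. These genes are given as called in every fit, and a call that a left-out library ended is given with libraries whose removal ended it. The plot of calls by left-out library shows this spread.

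**Figure D1:**
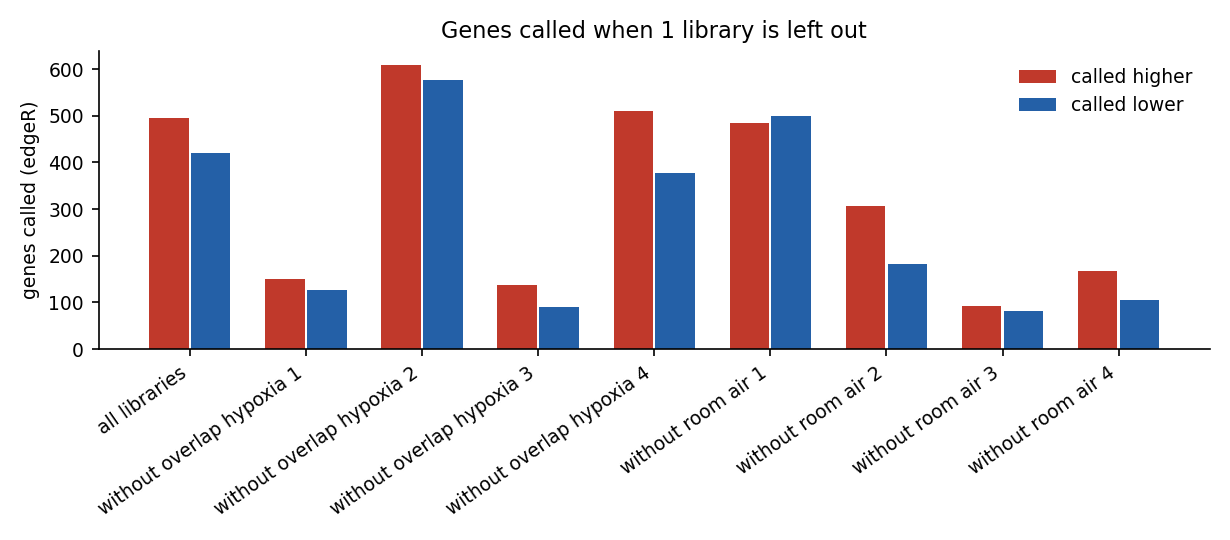
Number of genes called higher (red) and lower (blue) by edgeR in overlap hypoxia against room air, with all libraries and with 1 library left out at a time. All libraries gave 496 higher and 420 lower; the lowest bars, without room air replicate 3, stand at 93 and 81.

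Calls also differed by gene length. When the tested genes were divided into 4 equal groups by exon length, the shortest (107 to 2408 bases) held 34 genes called higher and 174 called lower. The longest (6415 to 123179 bases) held 208 and 45. The median log2 fold change rose from −0.11 in the shortest group through −0.02 and 0.07 to 0.15 in the longest. With offsets for length and GC content in the fit, edgeR called 252 higher and 393 lower, which put 39.1% of the calls higher against 54.1% without them. The longest group then held 82 and 82, and the shortest 47 and 104. With upper-quartile scaling the split was 576 higher and 309 lower (65.1% higher). The part of gene length in the differences described below was not tested beyond these fits.

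**Figure D2:**
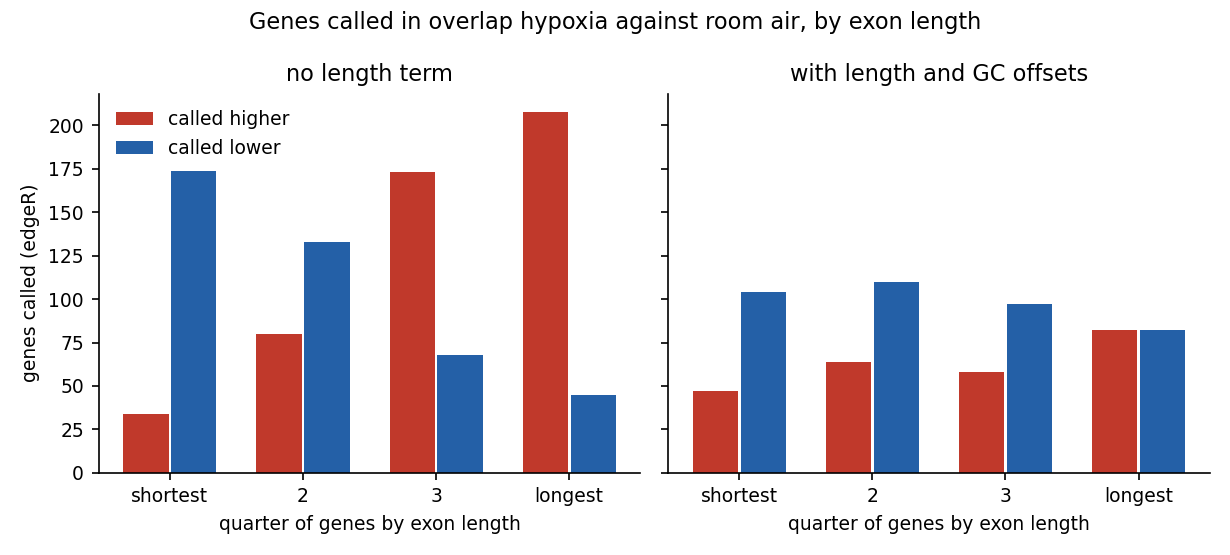
Genes called higher (red) and lower (blue) in overlap hypoxia against room air, in 4 equal groups of tested genes by exon length, without a length term (left) and with offsets for length and GC content (right). The longest genes held 208 higher and 45 lower calls without the offsets, and 82 and 82 with them.

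Genes of Kupffer cells were lower in overlap hypoxia. Of 15 markers tested, 9 fell (Adgre1, Folr2, Timd4, C1qb, Clec4f, C1qa, Cd5l, Vsig4 and C1qc), none rose and 14 had a negative log2 fold change; the median was −1.27, beside 0.027 over all genes. Adgre1 (ENSMUSG00000004730, chromosome 17, 57358691 to 57483527), which encodes the macrophage surface marker F4/80, read 2.51, 3.50, 2.93 and 4.83 CPM in the room air libraries and 0.701, 0.584, 0.350 and 0.597 CPM in the overlap hypoxia libraries. The highest overlap hypoxia value was below the lowest in room air, and the log2 fold change was −2.55 (SE 0.36, edgeR adjusted p = 0.00108).

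Clec4f (ENSMUSG00000014542, chromosome 6, 83644542 to 83656187), a lectin that marks Kupffer cells among mouse macrophages, read 42.2, 41.6, 31.7 and 66.1 CPM in room air and 14.4, 11.1, 12.3 and 18.4 CPM in overlap hypoxia. The groups lay apart, and Clec4f fell by 1.68 on the log2 scale (SE 0.29, edgeR adjusted p = 0.00659). C1qa, a subunit of the complement recognition protein C1q, fell, from 28.3 ± 9.44 CPM in room air to 9.41 ± 1.73 CPM in overlap hypoxia (mean ± SD, n = 4; log2 −1.58, SE 0.27, edgeR adjusted p = 0.00558). Timd4, a receptor for dying cells found on long-lived resident macrophages, fell, from 2.55 ± 0.483 CPM in room air to 0.666 ± 0.0963 CPM in overlap hypoxia (log2 −1.96). Cd5l, a secreted macrophage protein, fell by 1.45 on the log2 scale, and Vsig4, a complement receptor, by 1.27.

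Folr2, a folate receptor of resident macrophages, fell by 1.98 on the log2 scale (edgeR adjusted p = 0.00118), but 63.1% of its exonic bases overlap the gene Gm10602 on the other strand, and the 2 cannot be told apart here. Of the 9 calls, 8 were kept in each of the 8 leave-one-out fits. That of C1qb (log2 −1.73) was lost without overlap hypoxia replicate 1 or 3, without room air replicate 2, 3 or 4, and with the ribosomal RNA share as covariate (adjusted p up to 0.0843). Markers that did not pass were Csf1r (log2 −0.68, adjusted p = 0.0533), Slc40a1 (−0.53), Clec1b (−0.74), Cd163 (−0.87), Cd68 (−0.69) and Marco (0.14). With offsets for length and GC content 10 members were called lower.

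The summed level of the Kupffer cell markers was 222.6, 229.7, 191.3 and 295.7 CPM in the room air libraries and 102.6, 96.9, 98.8 and 118.3 CPM in the overlap hypoxia libraries. The groups did not overlap. An exact two-sided permutation test gave p = 0.0286, the smallest that 4 against 4 libraries can give. It did not pass after adjustment over 19 library measures (0.136). The summed level of the hepatocyte markers was 84409 ± 6717 CPM in overlap hypoxia and 80416 ± 12716 CPM in room air (exact p = 0.657). Alb alone stood at 37300 to 60643 CPM, so this sum rests mostly on 1 gene. It cannot show that hepatocyte content was unchanged. In bulk liver, fewer cells of a type and less RNA per cell cannot be told apart, here and in the groups that follow.

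General myeloid genes moved the same way. Of 10 tested, Lyz2, Tyrobp, Ctss and Fcer1g fell, none rose, and the median was −0.77; each of the 4 was called in every fit. Lyz2 (ENSMUSG00000069516, chromosome 10, 117277331 to 117282321), the lysozyme of macrophages, read 50.2, 51.5, 48.9 and 96.9 CPM in room air and 14.2, 14.4, 13.8 and 21.4 CPM in overlap hypoxia. The replicates numbered 4 were the highest of both groups, which still lay apart, and Lyz2 fell by 1.95 on the log2 scale (SE 0.31, edgeR adjusted p = 0.0048). Tyrobp, an adaptor of activating immune receptors, fell by 1.75, Ctss, a lysosomal protease of antigen-presenting cells, by 1.44, and Fcer1g, a signalling chain of Fc receptors, by 1.25.

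Few markers of other leukocytes were called. The leukocyte gene Ptprc (CD45) was at log2 −0.66 (edgeR adjusted p = 0.125) and the monocyte receptor gene Ccr2 at 0.12. None of 7 MHC class II genes passed in edgeR (3 at an unadjusted p under 0.05, 1 called by DESeq2 and 0 by limma-voom), all with negative values and a median of −0.88. None of 12 lymphocyte genes passed either (1 at an unadjusted p under 0.05, 1 called by DESeq2 and 0 by limma-voom), again all negative and with a median of −0.88. Apart from Ighm, no lymphocyte gene read above 1.573 CPM, where calls are hard to reach. Their summed level was 8.77 ± 2.35 CPM in overlap hypoxia and 17.2 ± 2.44 CPM in room air. The exact two-sided permutation p was 0.0286, adjusted 0.136. Other falls of macrophage or leukocyte genes came from the genes of largest change. Fcgr4, an Fc receptor, fell by 1.71, Cd53, a tetraspanin of leukocytes, by 1.49, Cfp, the complement factor properdin, by 1.52, and the chemokine gene Ccl6 by 1.54 on the log2 scale. Wfdc17 fell by 1.94. All 5 were called in every fit.

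**Figure D3:**
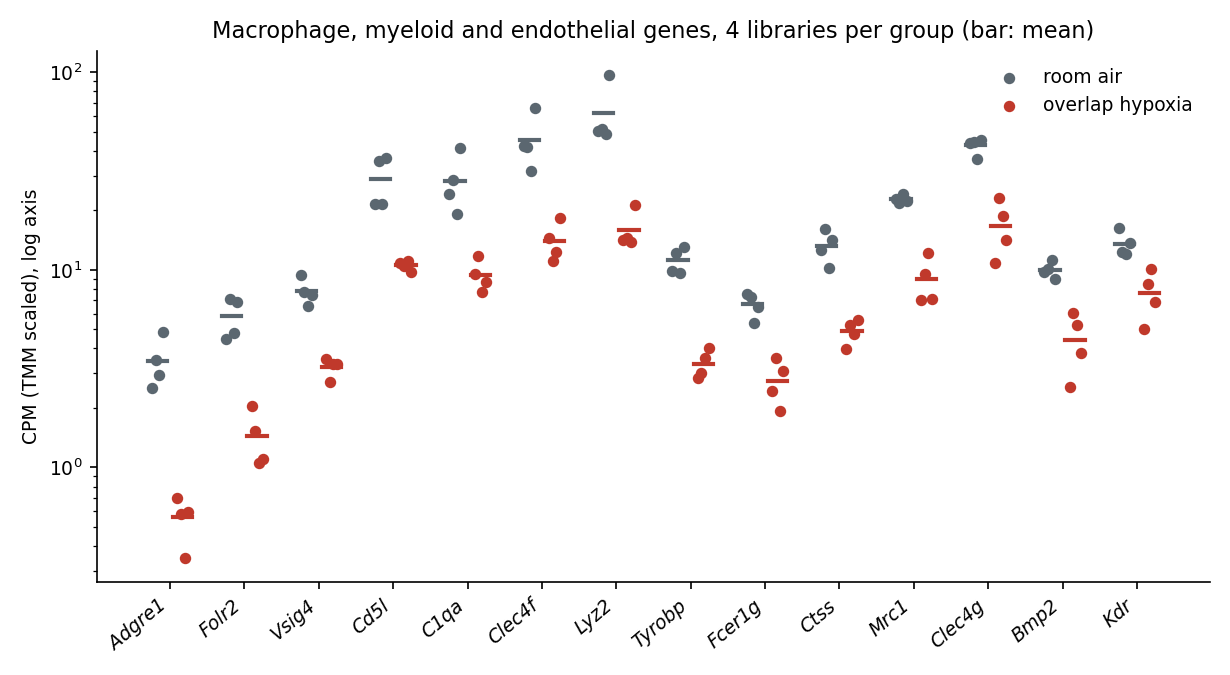
CPM on a log axis of macrophage, myeloid and sinusoidal endothelial genes in the 4 room air (grey) and 4 overlap hypoxia (red) libraries, with the group mean as a bar. For each of the 14 genes the overlap hypoxia values lie below the room air values; Kdr is the gene whose groups come closest, 12.0 against 10.1 CPM.

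Some of the sinusoidal endothelial genes fell and others did not pass the test. Of 15 tested, 7 fell (Clec4g, Fcgr2b, Oit3, Kdr, Bmp2, Mrc1 and F8) and none rose, with a median of −0.61. Mrc1 (ENSMUSG00000026712, chromosome 2, 14229392 to 14332057), the mannose receptor with which sinusoidal endothelium and macrophages take up glycoproteins, read 22.9, 21.7, 24.2 and 22.4 CPM in room air and 7.06, 9.47, 12.2 and 7.12 CPM in overlap hypoxia. The room air libraries were close to each other, the overlap hypoxia libraries all lower, and the log2 fold change was −1.37 (SE 0.18, edgeR adjusted p = 0.000898). Clec4g (ENSMUSG00000074491, chromosome 8, 3707064 to 3720651), a lectin of sinusoidal endothelium, read 44.0, 44.6, 36.4 and 45.5 CPM in room air and 10.9, 23, 18.8 and 14.1 CPM in overlap hypoxia. All overlap hypoxia values lay below those of room air, and Clec4g fell by 1.36 on the log2 scale (SE 0.18, edgeR adjusted p = 0.000898).

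Bmp2, the endothelial signal that induces hepcidin in hepatocytes, fell, from 9.996 ± 0.929 CPM in room air to 4.4 ± 1.54 CPM in overlap hypoxia (log2 −1.21, SE 0.21, edgeR adjusted p = 0.0048). Hamp, which encodes hepcidin, was at log2 −0.16 (adjusted p = 0.818). Stab1, Stab2 and Eng, further genes of this endothelium, stood at −0.04, 0.08 and 0.07 (adjusted p of 0.859 and above). Mrc1, Clec4g and Bmp2 were called in every fit. Kdr, a receptor for VEGF, was at −0.85 and lost its call without overlap hypoxia replicate 1 (adjusted p = 0.0571). The other calls were lost without several libraries: the list held 3 calls without overlap hypoxia replicate 1, 4 without room air replicate 3 or 4 and 4 with the ribosomal RNA share as covariate. With the length and GC offsets it held 6. The summed level of the list was 242.3, 234.4, 235.2 and 215.3 CPM in room air and 109, 189.4, 179.8 and 113.2 CPM in overlap hypoxia (exact two-sided permutation p = 0.0286, adjusted 0.136). Overlap hypoxia replicates 1 and 4 were the lowest, and the p was 0.0571 with any 1 room air library left out.

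Bmp2, Kdr, Mrc1 and Clec4g were also lower in overlap hypoxia than in intermittent hypoxia. Against room air, sustained hypoxia had 7 calls over all genes (0.0481%) and intermittent hypoxia 5404 (37.1%), and the median of the endothelial list was −0.37 in sustained and 0.13 in intermittent hypoxia; these comparisons share the room air libraries. The intermittent hypoxia libraries stood apart in ribosomal RNA (18.5% to 34.8% of counts) and mitochondrial genes (6.23% to 11.7%), against 2.54% to 16.8% and 2.54% to 7.17% in overlap hypoxia; the part of these shares in the differences from intermittent hypoxia was not tested. In the test of overlap against intermittent hypoxia (895 genes called, 6.15%), Bmp2 differed by −1.17 (edgeR adjusted p = 0.0097), Kdr by −0.86 (0.0198), Mrc1 by −0.78 (0.0199) and Clec4g by −0.68 (0.0338). The macrophage genes did not pass there: Adgre1 differed from intermittent hypoxia by −0.55 (adjusted p = 0.36) and Lyz2 by −0.05 (0.938). Against sustained hypoxia (24 genes called, 0.165%) neither Adgre1 (adjusted p = 0.0517), Clec4g (0.0517), Mrc1 (0.0912) nor Bmp2 (0.167) passed. The Kupffer cell list had medians of −0.58 in sustained and −0.95 in intermittent hypoxia against room air. Cd55, which protects cells from complement, fell by 1.58 against room air and differed from intermittent hypoxia by −1.15 (edgeR adjusted p = 0.0199).

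Several repressor and output genes of the circadian clock rose in overlap hypoxia. In the clock, CLOCK and BMAL1 bind E-box sequences and drive the period and cryptochrome repressors and output factors such as DBP and TEF, which act through D-box sequences. Of 13 repressors and outputs tested, 6 rose (Per2, Per3, Bhlhe41, Dbp, Tef and Cry2), none fell, and all 13 had positive values with a median of 0.76. The promoters of 3 genes called here are shown as examples of such motifs. Genes and motifs were picked by hand and only windows holding the motif were printed, so a match in them is no result. Slc20a1 is not a clock gene. The windows are RefSeq's on GRCm38.p6, 250 bases before to 50 after the start, read 5′ to 3′ on the gene's strand. Capitals mark the D-box TTATGTAA in Per3 (chr4:151044616-151044915, minus strand) and the E-box CACGTG in Tef (chr15:81811164-81811463, plus strand) and in Slc20a1 (chr2:129198523-129198822, plus strand).
Per3: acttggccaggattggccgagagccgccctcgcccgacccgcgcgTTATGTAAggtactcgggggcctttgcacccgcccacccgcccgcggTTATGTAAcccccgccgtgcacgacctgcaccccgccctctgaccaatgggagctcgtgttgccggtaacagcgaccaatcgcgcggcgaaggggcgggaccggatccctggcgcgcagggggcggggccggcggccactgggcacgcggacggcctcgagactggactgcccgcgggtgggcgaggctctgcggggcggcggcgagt
Tef: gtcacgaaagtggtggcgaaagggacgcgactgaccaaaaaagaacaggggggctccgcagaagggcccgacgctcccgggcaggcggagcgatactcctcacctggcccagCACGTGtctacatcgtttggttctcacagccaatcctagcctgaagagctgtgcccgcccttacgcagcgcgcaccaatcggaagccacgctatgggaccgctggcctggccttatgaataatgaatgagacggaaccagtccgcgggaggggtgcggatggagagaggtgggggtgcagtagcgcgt
Slc20a1: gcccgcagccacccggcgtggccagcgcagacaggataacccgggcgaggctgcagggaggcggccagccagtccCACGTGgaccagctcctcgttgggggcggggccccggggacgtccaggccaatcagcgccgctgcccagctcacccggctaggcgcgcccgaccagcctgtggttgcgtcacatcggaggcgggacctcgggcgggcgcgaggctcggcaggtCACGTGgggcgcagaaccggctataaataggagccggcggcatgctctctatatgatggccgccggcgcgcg

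Searched on both strands, CACGTG occurred in 7.15% of all 32851 promoter windows and in 1 or more windows of 8.09% of all 27025 genes. The D-box letters TTATGTAA or TTATGCAA occurred in 1.66% of windows and 1.98% of genes. Among the 11 clock repressors and outputs with a window in the table, 5 held CACGTG (Per1, Cry1, Ciart, Bhlhe41 and Tef) and 2 the D-box letters (Per1 and Per3). Of these, Per1, Cry1 and Ciart were not called as higher, while the called genes Per3, Cry2 and Dbp held no CACGTG. Tef has a further window with CACGTG at another start (chr15:81802423-81802722). A match describes the letters and shows no binding. Per2 and Bhlhe40 have no entry.

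Per2 (ENSMUSG00000055866, chromosome 1, 91415982 to 91459324), a core repressor of the clock, read 2.47, 2.24, 1.95 and 3.15 CPM in room air and 9.02, 10.3, 8.39 and 5.64 CPM in overlap hypoxia. Every overlap hypoxia library was above every room air library, and Per2 rose by log2 1.77 (SE 0.24, edgeR adjusted p = 0.000898). Per3 (ENSMUSG00000028957, chromosome 4, 151003652 to 151044665), another period gene, read 3.23, 2.60, 2.59 and 5.23 CPM in room air and 9.02, 12.2, 10.3 and 7.31 CPM in overlap hypoxia. The groups did not overlap, with room air replicate 4 the highest of its group and overlap hypoxia replicate 4 the lowest, and Per3 rose by 1.51 (SE 0.29, edgeR adjusted p = 0.00761).

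Dbp, an output factor of the clock (ENSMUSG00000059824, chromosome 7, 45705088 to 45710203), read 48.0, 53.8, 33.4 and 51.3 CPM in room air and 78.7, 118.5, 98.0 and 91.5 CPM in overlap hypoxia. All 4 overlap hypoxia values were higher, by log2 1.05 (SE 0.17, edgeR adjusted p = 0.00303), and 18% of the exonic bases of Dbp overlap Sphk2 on the other strand. Tef (ENSMUSG00000022389, chromosome 15, 81802421 to 81826863) read 37.6, 38.2, 36.8 and 53.3 CPM in room air and 69.5, 74.6, 75.3 and 67.3 CPM in overlap hypoxia. The groups lay apart, with log2 0.79 (SE 0.15, edgeR adjusted p = 0.00761); with the length and GC offsets Tef was at 0.51 with an adjusted p of 0.053.

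Per2, Per3 and Dbp were called in every fit. Cry2, a cryptochrome repressor, was at 0.76 and lost its call without overlap hypoxia replicate 1 or 3, without room air replicate 3 and with the offsets (adjusted p up to 0.157). Bhlhe41, a repressor of CLOCK and BMAL1, was at 1.34 and lost its call without overlap hypoxia replicate 1, 3 or 4 and without room air replicate 2, 3 or 4 (up to 0.134). Members that did not pass were Per1 (0.66, adjusted p = 0.171), Cry1 (0.58), Ciart (1.36), Hlf (0.52), Bhlhe40 (0.53) and the REV-ERB genes Nr1d1 (0.44) and Nr1d2 (0.50). The list held 4 calls without overlap hypoxia replicate 1 or 3, without room air replicate 3 and with the offsets.

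A further list joined clock activators, genes of opposite phase and casein kinases of the clock. Of its 7 tested members the kinase genes Csnk1d and Csnk1e rose and none fell. No activator or gene of opposite phase was called. Csnk1d, a kinase that phosphorylates period proteins, rose, from 9.78 ± 0.736 CPM in room air to 15.8 ± 2.12 CPM in overlap hypoxia (log2 0.69, SE 0.13, edgeR adjusted p = 0.00761) and was called in every fit. Csnk1e, its relative, was at log2 1.27 and lost its call without overlap hypoxia replicate 1 or 3, without room air replicate 1, 2 or 3 and with the offsets (adjusted p up to 0.143). Arntl, which encodes BMAL1, read 0.712, 0.377, 0.265 and 0.336 CPM in room air and 0.134, 0.146, 0.0874 and 0.120 CPM in overlap hypoxia. The overlap hypoxia values were all lower, but Arntl did not pass (log2 −1.72, SE 0.84, edgeR adjusted p = 0.23) at a depth where 3 counts correspond to 0.274 CPM in overlap hypoxia replicate 3.

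Against room air, Per2 was at 1.15 in sustained and 2.90 in intermittent hypoxia, Per3 at 1.15 and 2.12, Dbp at 1.16 and 0.99 and Tef at 0.65 and 1.39. Overlap hypoxia was below intermittent hypoxia for Per2 (by log2 1.13, edgeR adjusted p = 0.0162) and for Tef (by 0.60, 0.029), and did not pass against sustained hypoxia for either (0.137 and 0.669). For Dbp neither test passed (0.765 against sustained and 0.846 against intermittent hypoxia). When the tissue was collected is not stated in the labels, so exposure and time of day cannot be told apart for these genes.

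**Figure D4:**
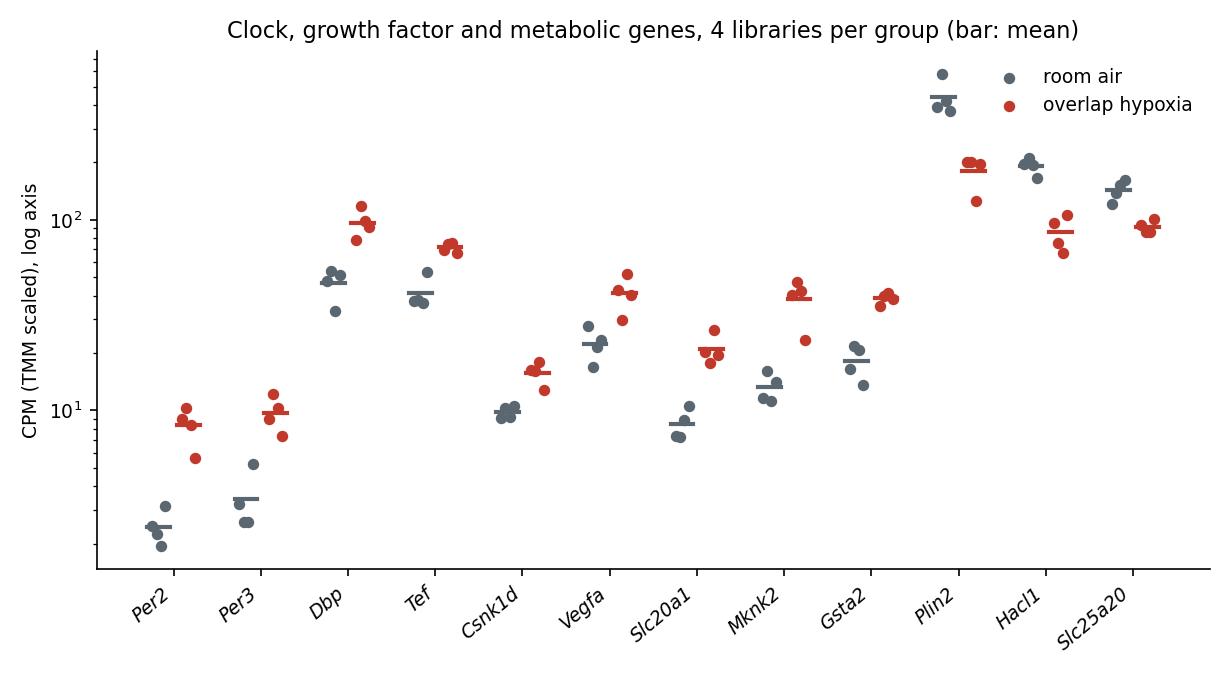
CPM on a log axis of clock genes, Vegfa and metabolic genes in the 4 room air (grey) and 4 overlap hypoxia (red) libraries, with the group mean as a bar. The overlap hypoxia values lie above those of room air for the first 9 genes and below them for Plin2, Hacl1 and Slc25a20.

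The HIF targets showed calls in both directions. Of 33 tested, Vegfa and Gapdh rose and Pgk1 and Ldha fell, and the median was −0.09. Over all genes 3.41% were called higher and 2.89% lower. Vegfa (ENSMUSG00000023951, chromosome 17, 46016993 to 46032369), the main growth factor of blood vessels, read 27.8, 17, 21.6 and 23.4 CPM in room air and 42.9, 29.9, 51.9 and 40.5 CPM in overlap hypoxia. The groups did not overlap, with the lowest overlap hypoxia value at 29.9 and the highest room air value at 27.8 CPM, and Vegfa rose by log2 0.88 (SE 0.17, edgeR adjusted p = 0.00761). It was called in every fit. Against room air Vegfa was at 0.14 in sustained and 1.6 in intermittent hypoxia, and overlap hypoxia was below intermittent hypoxia by 0.72 (edgeR adjusted p = 0.023) and did not pass against sustained hypoxia (0.0556).

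Among the glycolytic HIF targets the directions were opposite. Gapdh was at log2 0.85 (edgeR adjusted p = 0.0151, lost without room air replicate 3 or 4, up to 0.0618), and 24.7% of its 50-base words also occur in other genes. Ldha, lactate dehydrogenase, was at −0.74 (0.0407) and Pgk1, phosphoglycerate kinase, at −0.61 (0.0464). Among other fits, each lost its call without overlap hypoxia replicate 1 or 3, without room air replicate 2, 3 or 4 and with the offsets. Of the 50-base words of Pgk1 53.9% occur in other genes, and of those of Ldha 9.03%. Targets that did not pass include Egln3 (0.00), Slc2a1 (−0.08), Ankrd37 (0.03), Bnip3 (−0.41), Pdk1 (0.17), Adm (−1.07) and Hmox1 (−0.61, adjusted p = 0.0982). Among the HIF subunits and their regulators 1 of 8 passed. Vhl fell, from 8.16 ± 0.692 CPM in room air to 4.73 ± 0.293 CPM in overlap hypoxia (log2 −0.78, SE 0.19, edgeR adjusted p = 0.021) and lost its call without overlap hypoxia replicate 3 or room air replicate 2, 3 or 4 (up to 0.0645). Hif1a was at −0.03 and Epas1, which encodes HIF-2α, at 0.35 (0.149).

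Lipid storage and fatty acid breakdown genes were lower for a few members. Plin2 (ENSMUSG00000028494, chromosome 4, 86648386 to 86670060), the coat protein of hepatocyte lipid droplets, read 388.3, 579.4, 420.6 and 373.1 CPM in room air and 200, 200.7, 125.8 and 197.0 CPM in overlap hypoxia. The overlap hypoxia libraries were close together except replicate 3, the lowest, and all lay below room air (log2 −1.28, SE 0.17, edgeR adjusted p = 0.000898). Plin2 was the 1 member called among 14 lipid droplet and lipolysis genes, whose median was −0.24; Plin5 was at −0.78 (0.111), G0s2 at −1.25 (0.174) and Pnpla2, the main triglyceride lipase, at 0.51 (0.104). Against room air Plin2 was at −1.05 in sustained and −1.5 in intermittent hypoxia, and overlap hypoxia passed against neither (adjusted p = 0.483 and 0.445).

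Of 34 genes of fatty acid oxidation and targets of PPARα, Slc25a20, Acadm and Decr1 fell and Cpt1a rose; 29 values were negative and the median was −0.33. Slc25a20 (ENSMUSG00000032602, chromosome 9, 108662088 to 108684641), which carries acylcarnitines into mitochondria, read 120.7, 138.9, 152.3 and 161.9 CPM in room air and 94.1, 86.3, 86.6 and 100.9 CPM in overlap hypoxia. All overlap hypoxia values were lower (log2 −0.64, SE 0.13, edgeR adjusted p = 0.00884), and this call was made in every fit; with the offsets 2 members of the list were called. Acadm (−0.48) and Decr1 (−0.45), enzymes of β-oxidation, and Cpt1a (0.52), the gate of mitochondrial fatty acid entry, each lost the call in several fits, without overlap hypoxia replicate 1 or 3 and without room air replicate 3 or 4 among them (adjusted p up to 0.227). Hacl1, a peroxisomal enzyme of α-oxidation, was among the genes of lowest p. It read 197.0, 210.9, 193.9 and 165.6 CPM in room air and 96.6, 75.9, 66.6 and 105.8 CPM in overlap hypoxia, with no overlap (log2 −1.15, SE 0.16, edgeR adjusted p = 0.000974); 28.4% of its 50-base words occur in other genes.

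Of 20 lipogenic genes, Mlxipl (1.05) and Acaca (0.78) rose, with a median of 0.20. Neither was called with the offsets or the ribosomal RNA covariate. Each was lost without overlap hypoxia replicate 1 or room air replicate 2, 3 or 4. Acaca shares 30.4% of its sequence words with other genes, so its count depends on how reads were shared out. Fasn, fatty acid synthase, read 54.6, 58.7, 46.5 and 43.8 CPM in room air and 75.6, 386.5, 69.7 and 86.4 CPM in overlap hypoxia. The groups did not overlap, but overlap hypoxia replicate 2 stood far above the others and Fasn did not pass (log2 1.6, SE 0.55, edgeR adjusted p = 0.105). Among 12 genes of glucose metabolism Gys2, liver glycogen synthase, rose (0.47), and lost its call without any 1 overlap hypoxia library and without room air replicate 1, 2 or 3 (adjusted p up to 0.11).

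G6pc, the last enzyme of glucose output, read 141.5, 166.7, 124.0 and 144.8 CPM in room air and 100.2, 62.7, 135.9 and 69.9 CPM in overlap hypoxia. The groups overlapped through overlap hypoxia replicate 3, and G6pc did not pass (log2 −0.65, SE 0.24, edgeR adjusted p = 0.114). In sustained hypoxia G6pc was at −1.95 against room air, and overlap hypoxia differed from sustained hypoxia (edgeR adjusted p = 0.0466). Pck1, of glucose production, did not pass (−0.14). Of 14 genes of insulin signalling and IGF binding, Foxo3 (0.90) and Insr (0.45) rose; Foxo3, a transcription factor restrained by insulin, was kept without any 1 library and lost with the offsets (adjusted p = 0.0569), while Insr was lost with the offsets, without overlap hypoxia replicate 1 or 3 and without room air replicate 2, 3 or 4.

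Slc20a1 had the lowest p of all genes. Slc20a1 (ENSMUSG00000027397, chromosome 2, 129198764 to 129211616), a phosphate transporter of the cell membrane, read 7.31, 7.29, 8.94 and 10.5 CPM in room air and 20.2, 17.7, 26.5 and 19.5 CPM in overlap hypoxia. Every overlap hypoxia library was higher (log2 1.3, SE 0.15, edgeR adjusted p = 0.000355). Of the exonic bases of Slc20a1 13.1% overlap 9830144P21Rik or Gm4430 on the other strand. Its promoter window, printed above as an example picked by hand, holds CACGTG at 2 places. Mknk2 (ENSMUSG00000020190, chromosome 10, 80665327 to 80678112), a kinase of the translation factor eIF4E, read 11.6, 16.2, 11.2 and 14.2 CPM in room air and 40.3, 47.0, 42.2 and 23.3 CPM in overlap hypoxia. Replicate 4 was the lowest of the overlap hypoxia group and still above room air (log2 1.52, SE 0.20, edgeR adjusted p = 0.000898). Against room air Slc20a1 was at 0.71 in sustained and 1.33 in intermittent hypoxia, and Mknk2 at 1.01 and 2.01; overlap hypoxia passed against neither single exposure for either gene.

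Of 28 NRF2 targets and antioxidant enzymes, Gsta2 and Gstm3 rose and Gpx4 fell, with a median of −0.06. Gsta2 (ENSMUSG00000057933, chromosome 9, 78331018 to 78355788), a glutathione transferase, read 16.6, 21.7, 20.7 and 13.6 CPM in room air and 35.2, 39.7, 41.4 and 38.4 CPM in overlap hypoxia. The groups lay far apart (log2 1.09, SE 0.19, edgeR adjusted p = 0.0048) and the call was made in every fit, but 49.8% of its 50-base words occur in other genes, so its count depends on how reads were shared out. Gsta2 was also at 1.09 in sustained and at 1.83 in intermittent hypoxia against room air, and overlap hypoxia was below intermittent hypoxia by 0.74 (edgeR adjusted p = 0.0277). Gstm3 (1.45) lost its call without overlap hypoxia replicate 1 or room air replicate 3. Gpx4 (−0.85), the peroxidase of membrane lipids, was lost without overlap hypoxia replicate 1 or 3 and without room air replicate 2, 3 or 4. With the offsets 4 members of this list were called. Of the 50-base words of Gpx4 34.7% occur in other genes, and of those of Gstm3 28.8%.

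Among stress regulators, Hsf1, the master factor of the heat shock response, rose, from 2.30 ± 0.509 CPM in room air to 4.90 ± 0.770 CPM in overlap hypoxia (log2 1.09, SE 0.21, edgeR adjusted p = 0.00672), the 1 call among 15 heat shock and cold-inducible genes. Of 18 p53 targets and regulators, Mdm4 and Trp53 rose and Fas fell. Mdm4, an inhibitor of p53, rose by 1.18 and Fas, a death receptor induced by p53, fell by 0.88; both were called in every fit. Trp53, which encodes p53, was at 0.87 (edgeR adjusted p = 0.0369) and lost its call with the offsets, without overlap hypoxia replicate 1 or 3 and without room air replicate 2, 3 or 4 (up to 0.126). Overlap hypoxia differed from sustained hypoxia for Mdm4 (edgeR adjusted p = 0.0382) and was below intermittent hypoxia (by 0.98, 0.0231). Of 24 endoplasmic reticulum genes Ern1, a sensor of unfolded proteins, rose (0.79) and the folding enzymes Pdia3 (−0.61) and Pdia6 (−0.52) fell; each was lost without room air replicate 3. Of 24 autophagy and lysosome genes, Gabarapl2 fell by 0.68 in every fit, Ctsb fell by 0.49 and Atg9a rose by 1.52. The latter 2 were lost in several fits, among them those without overlap hypoxia replicate 1 or room air replicate 3 or 4. With the offsets 5 members of the list were called. Atg9a shares 30.2% of its sequence words with other genes, so its count depends on how reads were shared out.

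Some genes of RNA processing and chromatin rose, most of them with calls that single libraries ended. Of 27 splicing factors and kinases 6 rose (Srsf4, Luc7l2, Srrm2, Srsf11, Luc7l and Rbm5) and none fell, with a median of 0.29. With the offsets 4 were called, and 1 without overlap hypoxia replicate 1 or 3 or room air replicate 3 or 4. Srsf4 (1.10) was called in every fit, and 43% of its exonic bases overlap Gm12992 on the other strand. Of 20 histone methyltransferases 5 rose (Kmt2a, Kmt2b, Setd1a, Nsd1 and Nsd3), with a median of 0.55. None was called without overlap hypoxia replicate 1 or 3 or room air replicate 3 or 4, and 1 with the offsets. Setd1a shares 51.2% of its sequence words with other genes, so its count depends on how reads were shared out.

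Of 19 JmjC demethylases and TET enzymes, Tet2 and Kdm6b rose; the median was 0.28, and 0.02 with the offsets. Kdm6b (1.04) lost its call with the offsets, without overlap hypoxia replicate 1 or 3 and without room air replicate 2, 3 or 4 (adjusted p up to 0.239). Tet2, an oxygen-dependent enzyme that oxidises methylated DNA, was at log2 1.45 (SE 0.27, edgeR adjusted p = 0.00659) and was called in every fit, although its groups overlapped by 1 library (2.48 CPM in overlap hypoxia replicate 2, 2.49 CPM in room air replicate 1). It was below intermittent hypoxia by 1.3 (edgeR adjusted p = 0.0162). Of 14 factors of nonsense-mediated decay Smg1, Upf1 and Upf3b rose, and of 10 nuclear-retained RNAs Mlxipl, Ccnl1 and Ccnl2 rose; each of these 6 was lost without overlap hypoxia replicate 1 or 3. With the offsets 1 decay factor and 2 nuclear-retained RNAs were called. Smg1 (0.69) differed between overlap and sustained hypoxia with an edgeR adjusted p of 0.0109. Over room air, the medians of these groups were −0.29 to 0.11 in sustained and 0.53 to 1.70 in intermittent hypoxia for nuclear-retained RNAs and decay factors, against 0.76 and 0.43 in overlap hypoxia.

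Of 13 mitochondrially encoded genes 2 rose (mt-Nd3 and mt-Co1), beside 3.41% called higher over all genes. All 13 had positive values, with a median of 1.03. Counted as for Gapdh above, mt-Nd3 shares 98% of its sequence words with other genes and mt-Co1 51.1%. The counts of both called genes therefore depend on how reads were shared out. mt-Co1, a subunit of complex IV, read 10709, 6419, 6935 and 4629 CPM in room air and 23483, 8175, 33073 and 12672 CPM in overlap hypoxia. The groups overlapped, overlap hypoxia replicate 3 was the highest, and no member of the list was called without overlap hypoxia replicate 1 or 3, without room air replicate 2, 3 or 4, or with the ribosomal RNA covariate. The share of mitochondrial counts in each library includes the counts of these genes, so it is not a measure separate from them. Its part was not tested further. Of 32 nuclear genes of the respiratory chain Ndufb8 (−0.63) and Uqcrh (−0.60) fell, 27 values were negative and the median was −0.21. Neither call was kept without overlap hypoxia replicate 1 or 3, without room air replicate 2, 3 or 4, with the ribosomal RNA covariate or with the offsets. Of 30 ribosomal protein genes Rps3, Rps14, Rps18 and Rps9 fell and 26 values were negative, with a median of −0.32. Rps3 fell by 0.87 in every fit, and the other 3 were lost without overlap hypoxia replicate 1 or 3 and without room air replicate 2, 3 or 4.

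Of 16 pericentral hepatocyte genes Glul, Slc1a2 and Nkd1 rose (median 0.30). Glul, glutamine synthetase of the hepatocytes around the central vein, read 362.3, 302.2, 300.2 and 292.2 CPM in room air and 449.0, 649.9, 687.1 and 401.7 CPM in overlap hypoxia. The groups lay apart (log2 0.80, SE 0.19, edgeR adjusted p = 0.021); the call was lost without overlap hypoxia replicate 3 or room air replicate 2, 3 or 4 (up to 0.0833). The list held 0 calls in these 4 fits (edgeR; 5 members had an unadjusted p under 0.05 with all libraries) and 1 without overlap hypoxia replicate 1 or 2; Slc1a2 and Nkd1 were lost in all 6 of them and with the offsets. None of 13 periportal genes passed (3 at an unadjusted p under 0.05, 0 called by DESeq2 and 0 by limma-voom), with a median of −0.36. Of the plasma protein genes, the complement factors Cfb (−0.50) and Cfi (−0.55) and haptoglobin (Hp, −0.84) fell and the coagulation factor F11 rose (0.57). Each of these was lost without overlap hypoxia replicate 3 or room air replicate 4. Cfb shares 73% of its sequence words with other genes, so its count depends on how reads were shared out. Saa1, an acute-phase gene, read 48.4, 141.5, 47.6 and 2503 CPM in room air and 31.8, 33.4, 41.9 and 83.7 CPM in overlap hypoxia. Its log2 fold change of −3.84 (edgeR adjusted p = 0.0985) rested on room air replicate 4.

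Further lists held 1 or 2 calls, beside 3.41% called higher and 2.89% lower over all genes. These counts are not read as changes of the lists. Baat fell among 18 bile acid genes, Tdo2 and Aass among 22 of the urea cycle and amino acid breakdown, and Cyp3a11 among 17 of drug metabolism. Trim24 rose among 14 female-biased liver genes and Stat2 among 24 interferon-stimulated genes. Each of these 6 was lost without overlap hypoxia replicate 3 or room air replicate 3 or 4. Among 18 lists without a call in edgeR, 34 of 212 members had an unadjusted p under 0.05, 10 were called by DESeq2 and 6 by limma-voom. They include 25 male-biased liver genes (median −0.14), 21 major urinary protein genes (−0.44), 16 genes of iron handling (−0.10), 7 metal response genes (−0.20), 18 immediate early genes (0.32), 21 cell cycle genes (−0.10) and 14 stellate cell genes (−0.11). Mt2, a metallothionein, was at log2 −2.14 with an edgeR adjusted p of 0.0537. Cyp7a1, the first enzyme of bile acid synthesis, was at −0.14, Hmgcs1, of sterol synthesis, at 0.30, and Cirbp, a cold-inducible RNA-binding protein, at −0.16.

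The largest rises were mostly in genes at low levels. Col27a1, a fibrillar collagen chain, read 1.05, 0.697, 0.624 and 0.936 CPM in room air and 7.15, 2.87, 7.25 and 2.60 CPM in overlap hypoxia. Overlap hypoxia replicates 1 and 3 were the highest and the groups lay apart (log2 2.57, SE 0.47, edgeR adjusted p = 0.00794). Fam193b rose by 2.13, Bcl9l, a cofactor of β-catenin, by 2.11, Mbd6, of the methyl-CpG-binding family, by 2.07, and Sema4g, a semaphorin, by 1.94. Hcn3, an ion channel gene with 17.1% of its exonic bases over Pklr on the other strand, rose by 1.92, Clasrp, a partner of CLK kinases, by 1.80, and Pitpnm2 by 1.71. Scnn1a, a subunit of the epithelial sodium channel, rose by 1.66, Tmem25 by 1.66, Pkd1, which encodes polycystin-1, by 1.57, and Nlrp6, an innate immune sensor, by 1.57. All of these were called in every fit, and overlap hypoxia replicates 1 and 3 were above replicates 2 and 4 in Col27a1, Fam193b, Bcl9l, Mbd6, Sema4g, Clasrp, Pitpnm2, Scnn1a, Tmem25, Pkd1 and Nlrp6.

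The single exposures are given beside overlap hypoxia for 3 of these genes, all of them against the same room air libraries. Fam193b was at 0.34 in sustained and 3.26 in intermittent hypoxia, and overlap hypoxia differed from both (edgeR adjusted p = 0.0466 and 0.0488). Nlrp6 was at 0.39 and 2.61, and overlap hypoxia was below intermittent hypoxia by 1.05 (edgeR adjusted p = 0.029). Bcl9l was at 0.87 and 3.02 and passed against neither (0.0864 and 0.13). Among the largest changes, Col5a3 (2.05), mt-Nd3 (1.95), Insc (−1.70) and Igkc (−1.48) had the least stable calls: Col5a3 was called in 8, mt-Nd3 in 9, Insc in 7 and Igkc in 16 of 26 alternative fits.

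**Figure D5:**
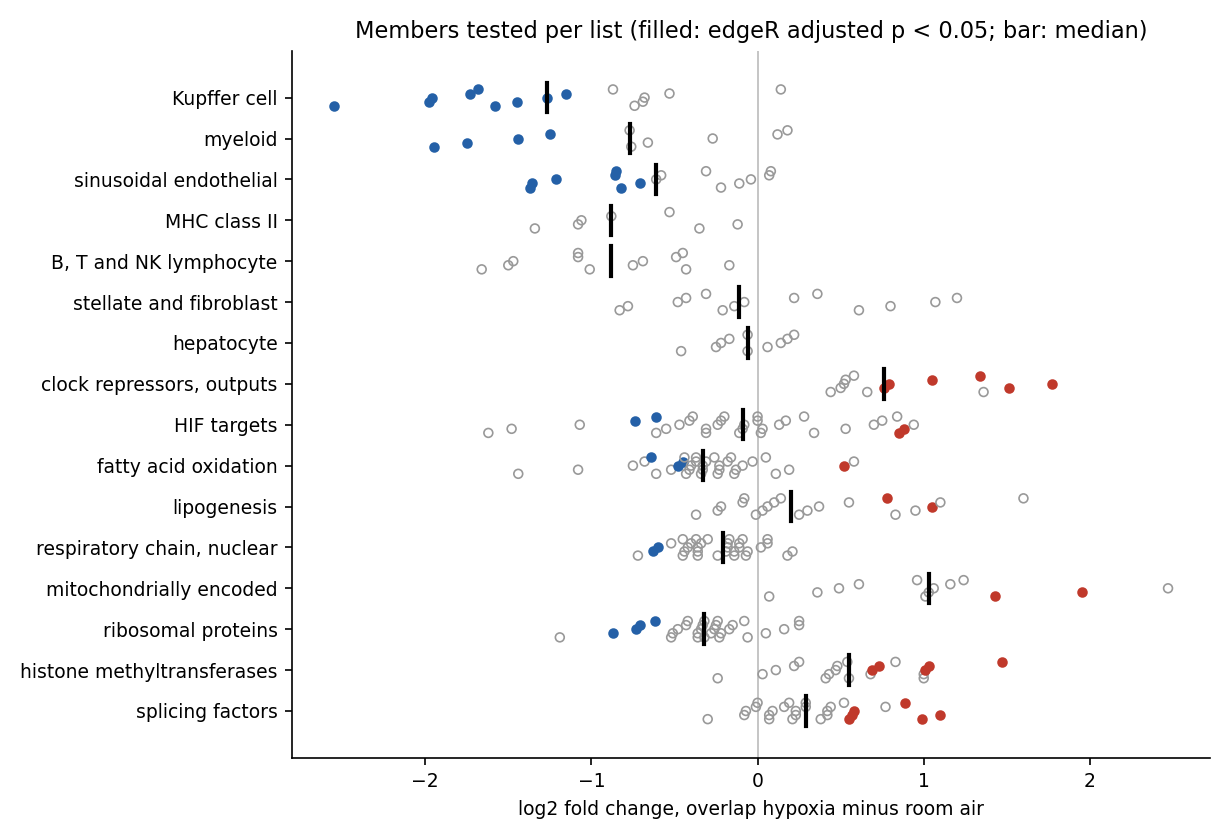
Log2 fold change of each tested member of 16 lists, overlap hypoxia minus room air; filled points passed edgeR's test (red higher, blue lower), open points did not, and the black bar is the list's median. Kupffer cell genes centre on −1.27, clock repressors and outputs on 0.76 and HIF targets on −0.09.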

How the data were processed

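RNA was measured by sequencing in 16 mouse liver libraries, 4 in each of 4 groups. Per the labels' protocols, total RNA was taken with Trizol and libraries were made with a TruSeq kit. The authors deposited 1 table of expected counts; the submitters' processing notes name Bowtie 1.3.0, RSEM and GRCm38, and give no order, and neither annotation release, read length nor strand is stated. Of the nonzero deposited values 49.25% were not whole (tolerance 1e-06), and the expected counts were rounded. Of 55487 Ensembl IDs, 55227 matched a symbol in GENCODE M21; the others took no more than 0.0313% of any library. Groups came from the treatment label.

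Genes were tested in R 4.3.3 with edgeR 4.0.16 (quasi-likelihood test, trimmed mean of M values scaling, filterByExpr), with 1 coefficient per group over all 16 libraries. P-values were adjusted by Benjamini and Hochberg over all genes tested, with a threshold of 0.05. The script was tested on simulated data. The SE is the log2 fold change divided by the square root of F. Alternatives were DESeq2 1.42.0, limma 3.58.1 (voom with quality weights), other scalings and filters, only the 8 libraries compared, a replicate block, the ribosomal RNA share as covariate, offsets for length and GC content, and each of the 16 libraries left out. A count of 0 allows up to 3 counts; this covers counting error only.

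The genes and lists were chosen with earlier results of these data known. Genes were named by a rule: up to 15 rises and 15 falls of largest size (calls averaging 2 CPM or more whose groups do not overlap), the 10 lowest p-values, up to 4 members per list with the lowest p, and a fixed set of metabolic, clock and tissue genes. Other list members named here were chosen after their values were seen. Lists were described by counts and medians, without a test. Promoter sequences are RefSeq's. Some genes are not reported here.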

Additional observations from a re-analysis of the deposited data

Results flagged for a closer look

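In 16 of the 360 groups of 4 libraries examined for the named genes, 1 library stood far from the other 3 by Dixon's criterion (the gap to the nearest value taking most of the group's range); chance gives about 1 in 20. The share found is no higher than that, so which library stood apart is not read as a pattern. All values are in CPM.

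In the room air group the libraries that stood apart were mostly replicates 3 and 4. Room air replicate 3 was lowest for the endothelial gene Clec4g (36.4), for the macrophage receptor gene Csf1r (5.69) and for the haem oxygenase gene Hmox1 (6.48), and highest for Cyp7a1 (105.2). Room air replicate 4 was highest for Lyz2 (96.9, others up to 51.5), Tef (53.3, others up to 38.2) and Saa1 (2503, others up to 141.5). Room air replicate 1 was highest for Glul (362.3).

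In the overlap hypoxia group, replicate 2 was highest for Fasn (386.5, others up to 86.4) and lowest for Nsd3 (11.1, others from 22.4) and Luc7l (11.5). Overlap hypoxia replicate 3 was lowest for Plin2 (125.8, others from 197.0) and highest for mt-Nd3 (866.7, others up to 273.2). Overlap hypoxia replicate 4 was highest for Lyz2 (21.4) and Egln3 (8.84) and lowest for Slc1a2 (69.1). The direction of the difference from room air for Clec4g, Lyz2, Tef, Plin2, Glul and Fasn did not rest on these libraries, since the groups did not overlap.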

How the results depend on the processing

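Results were recomputed under 26 alternatives, and no called gene named in the text changed direction. DESeq2 called 1445 genes (5.19% of those tested higher, 4.74% lower) and limma-voom called 5.17% lower. With the ribosomal RNA share as covariate 361 were called (1.45% higher, 1.03% lower; 105 and 41 genes at least 2-fold), with offsets for length and GC content 1.73% were higher (86 genes at least 2-fold), and with only the 8 libraries compared 2.33% were higher. Of the 916 calls, 913 were kept by DESeq2, 848 by limma-voom, 484 with the offsets and 348 with the covariate. With only the 8 libraries compared, edgeR called 618 genes and kept 558 of the 916. Leaving out 1 library of the 16 gave 174 to 1186 calls, 0.624% to 4.07% higher and 0.543% to 3.85% lower, and 52 to 254 genes higher and 37 to 98 lower at least 2-fold. The summed levels of Kupffer cell, myeloid, lymphocyte and endothelial markers each had an exact p of 0.0286, the smallest 4 against 4 can give, and 0.136 after adjustment. With a replicate block edgeR called 1112 genes and kept 869 of the 916. For libraries of equal replicate number in the 2 groups, the correlations of their deviations from the group mean were 0.156, −0.00107, 0.0354 and 0.0487. Those of unequal number lay between −0.17 and 0.142. These values do not settle whether equal replicate numbers pair the libraries. Depth limits genes near 0.274 CPM, which is 3 counts in overlap hypoxia replicate 3. The causes of these shifts were not tested.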
